A study of Orestias ascotanensis with 42 samples.

Results

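The genes described here are the 200 with the most gill reads among those enriched in the gills of Orestias ascotanensis. This killifish lives in springs of a high Andean salt pan, Ascotán, and was collected at 3740 m above sea level. The genes were chosen by measured values: the mean level over the 14 gill libraries, plus 0.5, had to be at least 4 times the mean of skin and of muscle, each plus 0.5. Levels are CPM, the count of a gene per 1000000 counts of its library. The counts cover 21024 genes, of which 1049 met the fold, and the 200 with the highest gill mean were taken. The tissue difference of these members is therefore a description and was not tested.

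Gills, skin and muscle were taken from each of 14 wild-caught fish, 7 netted in the southern summer (January 2020) and 7 in the southern winter (July 2019). All fish came from 1 site, with no treatment and no laboratory control, and the labels state neither age nor sex. Poly-A RNA of each tissue was sequenced, which gave 42 libraries in 6 groups of 7: gills summer, gills winter, skin summer, skin winter, muscle summer and muscle winter. Each season was sampled in 1 year only, so season cannot be told apart from year or collection trip.

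The fish gill is a thin epithelium folded over blood vessels, where gas, ions, acid and ammonia are exchanged with the water. It holds flat pavement cells, ionocytes that pump salt, pillar cells that line the blood spaces, mucous cells and many immune cells, and it is filled with blood. Skin shares with it an outer epithelium, mucous cells and ionocytes, while skeletal muscle is mostly contractile fibres. The files do not pair the identifiers with gene names, so no member is assigned here to any of these cells, and the lists of gill, blood, skin and muscle markers could not be matched to genes. The labelled tissues could not be checked against markers for the same reason. In bulk tissue, fewer cells of a type and less RNA per cell cannot be told apart.

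Total counts per library ranged from 42711945 to 101623705 in gills, from 31616447 to 119309580 in skin and from 6074371 to 154396513 in muscle, where muscle summer 4 had the lowest total. The season tag of 4 libraries (gills summer 1, gills winter 7, skin summer 7 and muscle winter 4) differs from their title, and titles were followed. Some libraries of a group had a MAD of log2 count ratios under 0.15 to each other and are called near-identical here. In gills these were summer 4 and 7, winter 2 and 7, and winter 3 and 6. The others were 3 of the winter skin libraries (2, 6 and 7) and 4 of the summer muscle libraries (3, 5, 6 and 7). The limit is a set value, and gills summer 1 came close to it, at 0.160 to gills summer 4 and 0.166 to gills summer 7. Skin summer 3, skin summer 4 and muscle summer 4 stood apart from their tissue. Nothing in the labels says whether the near-identical libraries are separate samples, and p-values measure the spread between these libraries.

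Together the 200 members took 8.69% ± 0.911 of all gill counts, 0.801% ± 0.271 of skin counts and 0.490% ± 0.143 of muscle counts (SD, n = 14 each). The gill level of the median member was 190 CPM, and the medians of skin and muscle means were 22.6 and 3.04 CPM. In gills 17 members were at 1000 CPM or more and 190 at 100 CPM or more. The 10 with the highest gill mean held 41.5% of the members' gill counts, 24.7% of their skin counts and 72.1% of their muscle counts. Gene lengths are not in the files, so the order of members is one of reads and not of transcripts.

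**Figure D1:**
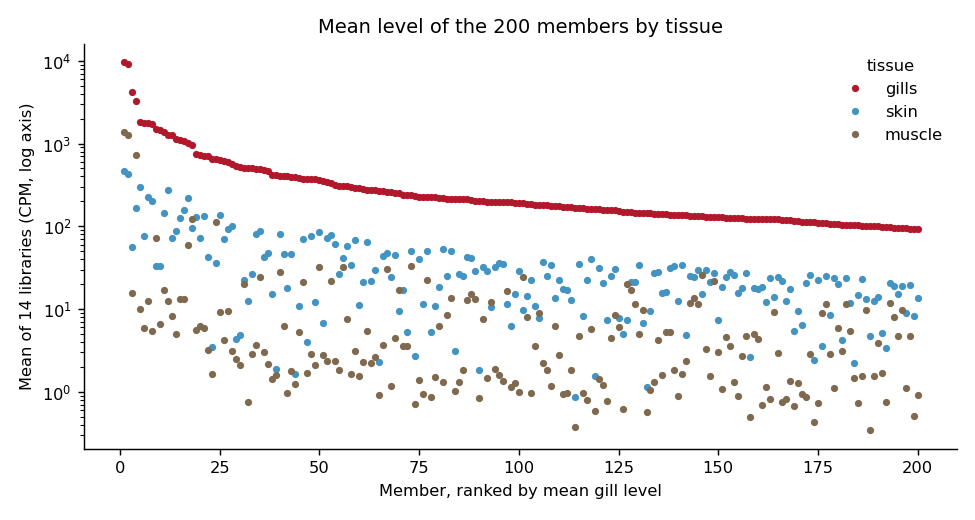
Mean level (CPM, log axis) of each of the 200 members in gills, skin and muscle, over 14 libraries per tissue, with members ranked by gill mean from left to right. Gill values lie highest by the choice of the members; skin is the closer tissue for 185 of them and muscle for 15.

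The enrichment over the closer of the other tissues had a median of 7.67-fold and ranged from 4.03 to 182-fold. It was at least 8-fold in 94 members, at least 50-fold in 14 and at least 100-fold in 5. The median fold was 8.34 over skin and 67.1 over muscle. Skin held more than 10 CPM of 157 members, whereas muscle held more than 10 CPM of 43 and under 1 CPM of 34. Compared within a fish, gills exceeded skin in all 14 fish for 199 members and exceeded muscle in all 14 fish for 200. The lowest gill library lay above the highest skin library for 188 members and above the highest muscle library for 200. These counts, and those within a fish, use the same CPM by library total that chose the members. They largely follow from that choice, are a description, and were not set beside a share over all genes.

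The size of these folds depends on the scaling. TMM factors, which correct the library total for a few very abundant genes, averaged 1.75 for gills, 1.19 for skin and 0.498 for muscle. On TMM-scaled CPM all 200 members stayed higher in gills than in both other tissues, but only 121 kept a fold of 4 and the smallest fold was 1.25. Folds and percentages of the gill level below are on CPM by library total.

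At the edge of the choice by rank, the members ranked 199 and 200 had gill means of 93.4 and 93.2 CPM, and the genes ranked 201 and 202 had 93.0 and 92.8 CPM. At the edge of the fold, the 2 members just inside stood at 4.03 and 4.06-fold, and the 2 genes just outside at 3.99-fold each.

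The members with the most gill reads were OAV3G000001923 and OAV3G000001926. OAV3G000001923 showed a lowest, median and highest gill level of 4642, 9401 and 19058 CPM, beside 206, 435 and 767 CPM in skin, and 626, 1181 and 2331 CPM in muscle. For OAV3G000001926 the gill values were 5002, 8776 and 17186 CPM, beside 168, 410 and 797 CPM in skin, and 709, 1225 and 2828 CPM in muscle. Both were lowest in skin, and on CPM by library total neither overlapped between gills and the other tissues. The separation from muscle does not carry over to TMM-scaled CPM. There the factors were 1.64 to 1.88 in gills and 0.317 to 0.660 in muscle, so that gills and muscle overlap for both. The member ranked 4 showed the same order of tissues, with medians of 2534 CPM in gills, 149.5 CPM in skin and 584 CPM in muscle. Its highest gill value, 9253 CPM, was in gills summer 3, the same library that was highest for both members above.

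Those 3 members (ranks 1, 2 and 4) carried 25.2% of the members' gill counts, 13.2% of their skin counts and 69.5% of their muscle counts. The level of OAV3G000001923 was 1.11 times that of OAV3G000001926 in the median library and between 0.418 and 1.501 times over the 42 libraries, the lowest ratio being in muscle summer 4. Relative to the rank 4 member the ratio was less steady, from 0.611 to 4.59 with a median of 2.87. Only 5 members averaged more than 100 CPM in muscle.

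The member ranked 3 was low in both other tissues. Its lowest, median and highest gill levels were 2490, 4527 and 5194 CPM, beside 0.930, 32.4 and 235 CPM in skin, and 0.179, 3.42 and 111 CPM in muscle. Muscle winter 2 gave the muscle maximum, and muscle winter 4 and 6 came next with 41.7 and 35.3 CPM. The other 11 muscle libraries held 6.42 CPM or less.

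**Figure D2:**
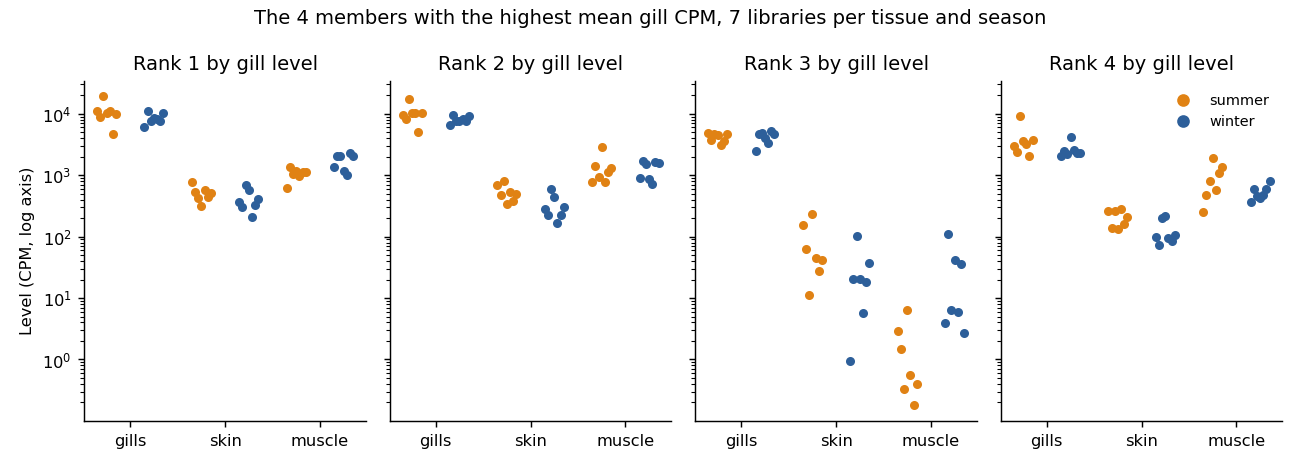
Level (CPM, log axis) of the 4 members with the highest gill mean in gills, skin and muscle, 1 point per library, summer left of winter within each tissue. Ranks 1, 2 and 4 have a higher median in muscle than in skin, while rank 3 is low in muscle except for 3 winter libraries.

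The strongest enrichment was in the member ranked 44, with a fold of 182: gill libraries averaged 389.7 ± 56.4 CPM, skin libraries 1.64 ± 3.12 and muscle libraries 1.23 ± 2.78 (SD, n = 14 each). The member ranked 39 followed with a fold of 174. The weakest member, ranked 141, had means of 137 CPM (gills), 33.7 CPM (skin) and 1.64 CPM (muscle). The 15 members with muscle as the closer tissue ran from rank 1 to rank 176.

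Within gills the members typically varied more between libraries than the other genes that reached the gill mean of the last member. Those genes were not matched to the members in level, and some gill libraries are near-identical. The coefficient of variation over the 14 gill libraries had a median of 17.1%, against 12.9% in the 2087 other genes with at least as high a gill mean as the last member. It was under 15% in 74 members and over 50% in 5. The steadiest, ranked 92, stayed between 171 and 212 CPM. The member ranked 16 stayed between 974 and 1238 CPM. At the other end, the member ranked 133 ran from 24.9 CPM in gills winter 5 to 513 CPM in gills summer 3, a 20.6-fold range, with 128 CPM in the median library. Summer fish spanned 26.8 to 513 CPM and winter fish 24.9 to 199 CPM, so the winter values overlapped with all but 2 of the summer ones. The rank 4 member described above was the next most variable.

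The spread among gill libraries was more often larger in summer. The SD of log2 CPM was larger in summer than in winter gills for 134 of 200 members, or 67%, beside 61.5% of the 2087 other genes. Gills summer 4 and 7, which are near-identical, lay above the gill median for 154 and 155 members, and gills summer 5 and 3 for only 41 and 56. In winter gills the same count ran from 88 to 119. The winter group holds 2 near-identical pairs, and their part in its smaller spread was not tested.

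Relative to their size, levels in skin and muscle differed between libraries far more than those in gills. Over all genes kept by a filter on low counts another measure was taken, the median correlation of a library with its tissue. This correlation was 0.968 to 0.984 in gills, 0.840 to 0.980 in skin and 0.790 to 0.959 in muscle. The lowest skin values were 0.840 in skin summer 4 and 0.866 in skin summer 3, and the next was 0.950 in skin winter 5. Libraries were thus less alike in muscle over all genes too, and in skin most clearly for skin summer 3 and 4. A correlation is not the spread of a gene, so whether the larger spread is particular to the members was not tested. In a skin library the median member stood at 3.12% to 14.7% of its mean gill level, lowest in skin summer 3 and skin winter 1 (3.78%) and highest in skin winter 7. In a muscle library it stood at 0.405% to 3.41%, highest in muscle winter 2, followed by muscle winter 4 (2.04%), muscle summer 4 (1.87%) and muscle winter 6 (1.46%). Muscle winter 2 was the highest of the 14 muscle libraries for 109 members, muscle summer 4 for 46 and muscle winter 4 for 24. Muscle summer 4, with its low total, was also the lowest for 48 members and had 43 members at 0.

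The 14 members with a fold of at least 50 over both other tissues moved together in some of these libraries. In muscle winter 2 every one of the 14 was at its muscle maximum, between 1.80% and 3.35% of its gill mean (median 2.21%). In muscle winter 4 they lay between 0.507% and 1.18% (median 1.00%) and in muscle winter 6 between 0.569% and 1.17% (median 0.666%). In the other 4 winter muscle libraries the medians were 0.0309% to 0.128%, and in the 7 summer muscle libraries 0% to 0.0520%. Muscle summer 4 had a median of 0% and a highest value of 1.92%.

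In skin the same pattern appeared in skin summer 1, where the 14 members lay between 2.92% and 4.04% of their gill means and 13 of them were at their skin maximum. The medians of the other 13 skin libraries were 0.133% to 1.26%. Skin summer 5 spanned 0.384% to 1.38%, skin winter 2 0.0178% to 2.46% and skin summer 4 0.206% to 5.63%. These members were picked for low skin and muscle means that include the same libraries, so the values are a description. In the fish that the labels give for muscle winter 2, gill levels were ordinary (88 members above the gill median). Its skin library had a median of 0.475% for the 14. Both of these libraries are among the near-identical ones, and the match of fish rests on the labels.

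**Figure D3:**
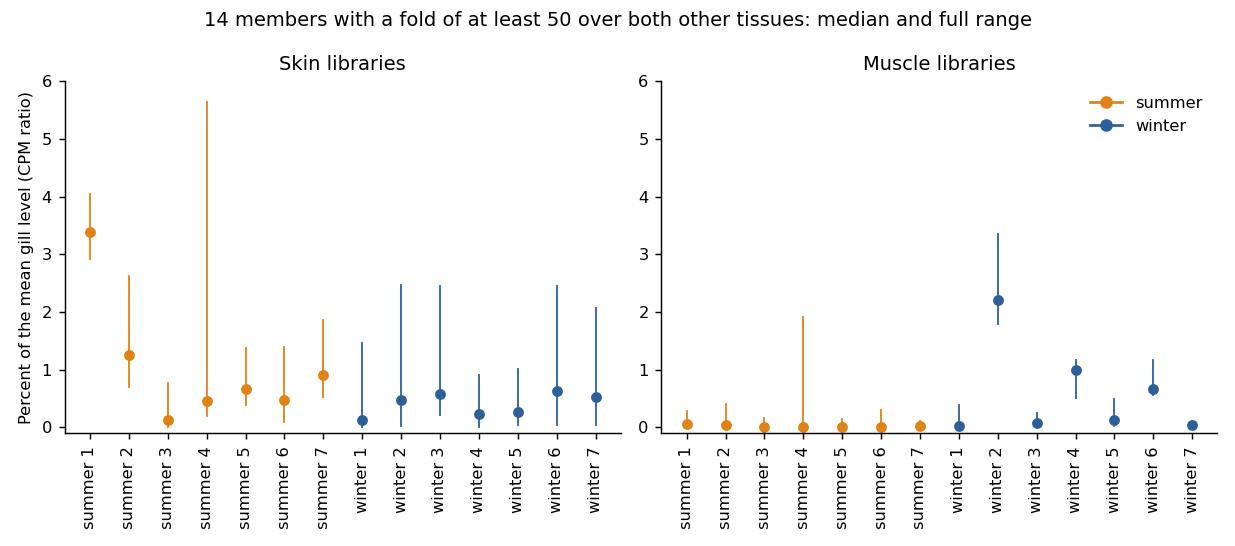
Level of the 14 most enriched members in each skin and muscle library as a percentage of their mean gill level (CPM ratio), with the median as a point and the full range as a line. Skin summer 1 lies at 2.92% to 4.04% and muscle winter 2 at 1.80% to 3.35%, with muscle winter 4 and 6 next in muscle; most other muscle libraries are near 0.

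Summer and winter gills were compared to ask whether these genes change with season in the tissue where they are abundant. All 200 members passed the filter on low counts, and none passed an adjusted p of 0.05 in edgeR's quasi-likelihood test, where 0% of all 18409 genes tested were called. At an unadjusted p under 0.05 there were 30 members, 20 higher and 10 lower in summer, which is 15% of them beside 14.5% of all genes, where 1119 were higher and 1550 lower. DESeq2 called 9 members, 6 higher and 3 lower, and 2.62% of the genes to which it gave an adjusted p; limma voom called 0. The median log2 fold change was 0.02 in the members and 0.003 in all genes, and the members ran from -0.44 to 0.77.

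Among the members higher in summer gills the smallest p belonged to OAV3G000020085, whose lowest, median and highest levels were 289, 417 and 496 CPM in summer gills and 221, 266 and 375 CPM in winter gills. The groups overlapped. Summer was 0.58 ± 0.14 (SE) higher on the log2 scale, at an edgeR adjusted p of 0.137. OAV3G000001706 had 108, 136 and 153 CPM in summer gills and 88.6, 104 and 114 CPM in winter gills (log2 fold change 0.36 ± 0.09, edgeR adjusted p = 0.139), overlapping through gills summer 2 alone. Both passed in DESeq2 (adjusted p = 0.0106 and 0.0168) and in edgeR without gills summer 2 (0.0468 for each).

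Of the members lower in summer gills, OAV3G000017780 had 71.2, 93.9 and 106 CPM in summer gills and 111, 116 and 127 CPM in winter gills. OAV3G000002639 had 255, 295 and 313 CPM in summer gills and 328, 368 and 408 CPM in winter gills. Neither overlapped between seasons, and the gap was small beside the levels. Their log2 fold changes were -0.31 ± 0.07 and -0.32 ± 0.08 (SE), with edgeR adjusted p of 0.128 and 0.132; in DESeq2 these were 0.00401 and 0.00948. Without gills summer 2 the first passed in edgeR too (adjusted p = 0.0477).

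In skin again all 200 members were tested and none passed in edgeR, as for 0% of all 18260 genes tested. At an unadjusted p under 0.05 there were 26 members higher and 1 lower in summer, 13.5% of the members beside 11.3% of all genes. All genes leaned the same way, with 1682 higher and 382 lower. DESeq2 gave an adjusted p to only 11 members, and to only 913 of all genes. It called 3 of the 11, all higher in summer, and 8.54% of the 913, while limma voom called 0. The median log2 fold change was 0.13 in the members and 0.001 in all genes. Of the 26, 11 were highest in skin summer 4, 9 in skin summer 1 and 4 in skin summer 3, the first and the last of which stand apart from the other skin libraries.

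OAV3G000001063 had a lowest, median and highest level of 6.00, 13.0 and 33.0 CPM in summer skin and 4.21, 5.48 and 6.10 CPM in winter skin (log2 fold change 2.00 ± 0.40, edgeR adjusted p = 0.438). Its winter values lay within a narrow range and only skin summer 6 overlapped them. OAV3G000013097 had 1.15, 5.38 and 19.2 CPM in summer skin and 0.218, 1.60 and 2.30 CPM in winter skin (2.68 ± 0.54, edgeR adjusted p = 0.438), again with skin summer 6 as the only overlap. In gills the first averaged 417 ± 93.2 CPM in summer and 347 ± 14.2 in winter, and the second 629 ± 118 in summer and 445 ± 120 in winter (SD, n = 7).

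The members with the smallest p in the other direction, OAV3G000011785 and OAV3G000019171, had log2 fold changes of -0.44 ± 0.21 and -0.51 ± 0.28 (SE; edgeR adjusted p = 0.438 and 0.459). OAV3G000011785 had 4.15, 17.9 and 20.9 CPM in summer skin and 18.5, 22.5 and 33.7 CPM in winter skin. OAV3G000019171 had 4.74, 26.4 and 34.3 CPM in summer skin and 27.0, 35.6 and 52.0 CPM in winter skin. Both were lowest in skin summer 3 and next lowest in skin summer 4, and the seasons overlapped.

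In muscle the members that passed the test were mostly lower in summer than in winter. Of the 190 members that passed the filter on low counts, 53 fell, 3 rose and 134 did not pass an adjusted p of 0.05 in edgeR's quasi-likelihood test. Of all 17181 genes tested in muscle 6.4% were called, 4.04% as lower and 2.36% as higher in summer. The median log2 fold change was -0.93 in the members and -0.01 in all genes. Negative values were found in 153 of the 190, or 80.5%, beside 50.6% of all genes tested. Members with reads in winter only could pass the filter through that group, so the 190 are not a neutral sample of the 200. Without the filter, all 200 were tested, 56 fell and 3 rose (29.5% beside 5.35% of all genes). That fit tested 20525 genes, and those it added, members included, have few muscle counts. They lower the share over all genes, so the 2 fits are not alike in background.

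**Figure D4:**
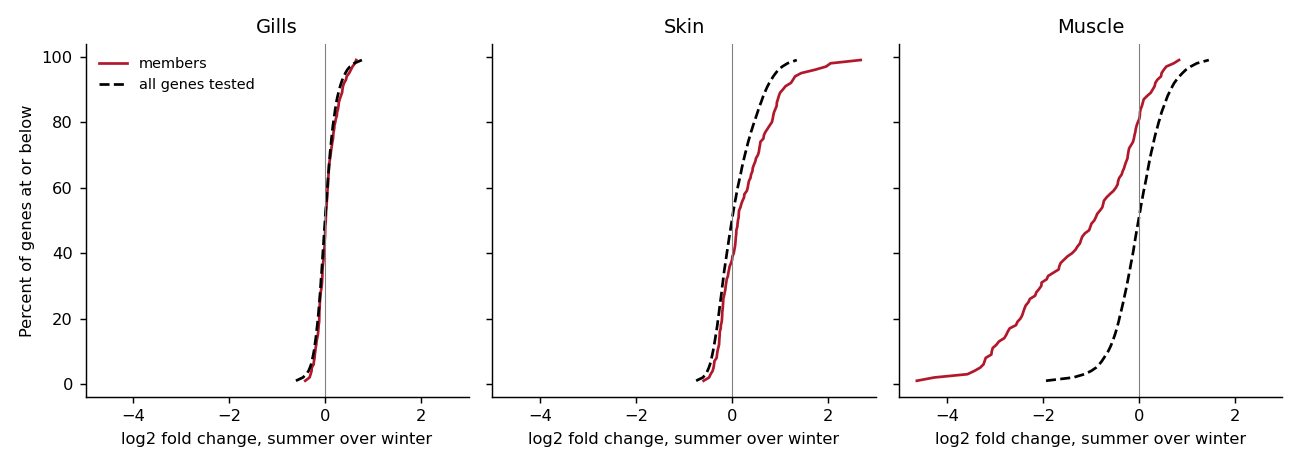
Distribution of log2 fold changes, summer over winter, in gills, skin and muscle, from the 1st to the 99th percentile, for the members (solid line) and all genes tested (dashed line). The lines lie close together in gills, the upper part of the members lies to the right in skin, and the members lie to the left in muscle (medians -0.93 for members and -0.01 for all genes).

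The 53 that fell had means over 7 libraries whose median was 0.596 CPM in summer muscle and 3.20 CPM in winter muscle. Their winter means ran from 1.17 to 41.7 CPM. Their log2 fold changes ran from -5.58 to -0.90 with a median of -2.76, and 42 fell at least 4-fold. The largest fall, that of OAV3G000015415, rests on levels near 0, and the winter mean was under 10 CPM for 38 of the 53. These sizes are a description, and the 42 were not set beside a share over all genes. Every summer library (7 of 7) was under the median of winter for 43 of the 53, or 81.1%, beside 90.3% of all 694 genes called lower. The seasons did not overlap for 4 of them, or 7.55%, beside 18.9% of all genes called lower and 0.978% of all genes tested. These shares were taken on genes already called, and are a description. The highest muscle library was muscle winter 2 for 49 of the 53. Their enrichment over muscle had a median of 119-fold, against 49.2-fold in the 134 that were not called. This fold helped choose the members and is divided by the mean of the same muscle libraries. It is therefore not independent of the fall and is a description only.

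The count moved with the libraries named above, and so did that over all genes. Without muscle winter 2, 26 members fell and 1 rose, 14.2% of those tested beside 2.73% of all genes. Without muscle winter 6, 28 fell and 1 rose (15.3% beside 2.63%). Without any 1 of muscle summer 3, 5, 6 and 7, the near-identical libraries, 25 to 27 fell and 1 rose, from 13.3% to 14.4% of the members beside 2.48% to 2.62% of all genes. With these 4 averaged into 1 sample no member was called, nor was any of all the genes tested. Without muscle summer 4, 76 fell and 3 rose (40.7% beside 8.77%). The season tag of muscle winter 4 says summer. Without this library 50 members fell and 4 rose, 28.4% beside 8.67% of all genes. With the season taken from the tag 13 fell and 4 rose, 8.72% beside 7.07% of all genes, so that the members were then close to the background.

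OAV3G000008797, ranked 70, fell without any overlap of the seasons. Its lowest, median and highest levels were 8.35, 11.2 and 14.8 CPM in summer muscle and 15.1, 21.2 and 29.1 CPM in winter muscle. The log2 fold change was -1.12 ± 0.19 (SE; edgeR adjusted p = 0.00652), and it lay between -1.21 and -1.01 whichever library was left out, with adjusted p from 0.00350 to 0.0233. It averaged 238 ± 50.03 CPM in summer gills and 262 ± 55.6 CPM in winter gills, and 9.80 ± 5.29 CPM in summer skin and 9.27 ± 3.94 CPM in winter skin (SD, n = 7). It is 1 of 5 fallers with a higher mean CPM in muscle than in skin.

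OAV3G000002700, ranked 178, had 0.573, 0.821 and 1.65 CPM in summer muscle and 0.481, 3.97 and 9.67 CPM in winter muscle. Muscle winter 3 was as low as the summer libraries and the other 6 winter libraries lay above all of them. Its log2 fold change was -2.44 ± 0.42 (SE; edgeR adjusted p = 0.00769). Muscle winter 1 was its highest library, not muscle winter 2. With the near-identical summer libraries averaged, both fallers kept their size (-1.15 and -2.33) and had an adjusted p of 0.147.

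The 3 that rose were less than 3 times higher in summer. OAV3G000008557 had 5.74, 6.16 and 16.5 CPM in summer muscle and 1.03, 2.84 and 5.99 CPM in winter muscle, and muscle winter 1 alone overlapped the summer range (log2 fold change 1.27 ± 0.31, edgeR adjusted p = 0.0240). It missed the threshold without muscle winter 2 (adjusted p = 0.0526). OAV3G000016994 had 21.9, 30.7 and 38.2 CPM in summer muscle and 9.76, 20.3 and 30.6 CPM in winter muscle, with overlapping seasons (0.60 ± 0.15, edgeR adjusted p = 0.0268). It missed the threshold without any 1 of muscle summer 3, 5, 6 or 7 or muscle winter 6 or 7 (adjusted p from 0.0504 to 0.0629). With the near-identical summer libraries averaged, the adjusted p was 0.147 for OAV3G000008557 and 0.252 for OAV3G000016994. The third riser, ranked 177, had a log2 fold change of 0.73 (edgeR adjusted p = 0.0300).

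**Figure D5:**
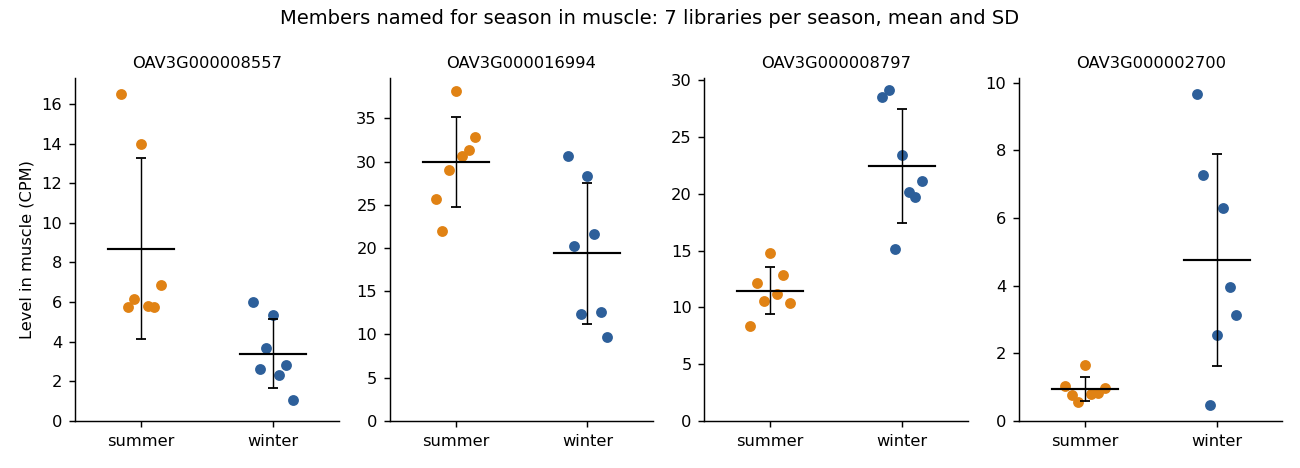
Level in muscle (CPM) of the 2 members with the smallest p in each direction, 1 point per library with the mean (line) and SD (bars), summer left of winter, n = 7 each. OAV3G000008797 separates the seasons completely, while the winter values of OAV3G000002700 spread from 0.481 to 9.67 CPM.

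Each pair of tissues was then compared in its seasonal change, in 1 fit of the 42 libraries, as summer minus winter in the first tissue minus the same in the second. All 200 members were tested, since gill counts alone carry them past the filter; the 10 that did not pass it in muscle are set apart below. Between gills and skin no member passed in edgeR, DESeq2 or limma voom, and edgeR called 0% of all 19258 genes; 10 had an unadjusted p under 0.05 (1 positive and 9 negative), 5% of the members beside 3.78% of all genes, which leaned the same way with 164 positive and 564 negative. Between gills and muscle 50 members passed, all positive, so that the summer minus winter value was higher in gills; 2.31% of all genes were called, 2.06% as positive. Between skin and muscle 80 were positive and 1 negative; 4.83% of all genes were called, 4.35% as positive. Among the 190 members that also passed the filter in muscle, 41 were called for gills against muscle, all positive, and 71 for skin against muscle, 70 of them positive. These are 21.6% and 37.4% of the 190, beside 2.07% and 4.37% of the 17181 genes that passed in muscle. Members with reads in winter muscle only could pass that filter, so the 190 are not a neutral sample and these shares are a description. The other 10 members gave 9 and 10 of the calls and, with so few muscle counts, support nothing. Of the positive members, 33 of 50 for gills against muscle were among the 53 that fell in muscle. For skin against muscle it was 44 of 80. The comparisons share the muscle libraries, so this overlap is a description only. It was not set beside a share over all genes.

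For gills against muscle the smallest p was that of OAV3G000003139, ranked 23, which is 1 of the 10 members that did not pass the filter in muscle. It averaged 662 ± 104 CPM in summer gills and 638 ± 84.1 CPM in winter gills, and 0.0204 ± 0.0211 CPM in summer muscle and 3.25 ± 4.71 CPM in winter muscle (SD, n = 7). In winter muscle 3 libraries stood out, with 12.9 CPM in muscle winter 2, 5.05 in muscle winter 4 and 3.90 in muscle winter 6, while the other 4 held 0.469 CPM or less. Its log2 difference was 6.97 ± 1.25 (SE; edgeR adjusted p = 0.00276), a fitted value that rests on muscle levels near 0 and is given as a description only.

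OAV3G000019271, ranked 10, passed the filter in muscle. It had 1296 ± 311 CPM in summer gills and 1586 ± 376 CPM in winter gills, and 0.465 ± 0.343 CPM in summer muscle and 12.7 ± 17.9 CPM in winter muscle. Muscle winter 2, 6 and 4 held 50.2, 17.0 and 14.8 CPM and the other winter libraries 2.28 CPM or less. The log2 difference was 4.52 ± 0.84 (SE; edgeR adjusted p = 0.00288). The 2 negative members with the smallest p, OAV3G000016005 and OAV3G000008244, did not pass (log2 difference -0.45 and -0.42, edgeR adjusted p = 0.213 and 0.325).

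Between skin and muscle OAV3G000003139 had a log2 difference of 8.85 ± 1.27, with the same limit as above, and OAV3G000015415 one of 9.49 ± 1.38 (SE; edgeR adjusted p = 0.000177 for each). Although OAV3G000015415 passed the filter in muscle, its value also rests on levels near 0 and is a description only. OAV3G000015415 averaged 3.47 ± 4.76 CPM in summer skin and 0.262 ± 0.303 CPM in winter skin, and 0.0584 ± 0.116 CPM in summer muscle and 3.10 ± 4.94 CPM in winter muscle (SD, n = 7). Skin summer 1 held 13.9 CPM of it and no other skin library more than 3.19, and muscle winter 2 held 13.6 CPM. OAV3G000011785 was the only negative call, at -0.94 ± 0.28 (edgeR adjusted p = 0.0447): it averaged 15.6 ± 6.10 CPM in summer skin and 23.5 ± 4.93 CPM in winter skin, and 5.54 ± 1.49 CPM in summer muscle and 3.83 ± 2.36 CPM in winter muscle (SD, n = 7). No negative member was called with the fish as a replicate block, in limma voom, with near-identical libraries averaged or without the libraries that stand apart.

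Averaging near-identical libraries left 0 members called for gills against muscle, beside 0.0308% of all genes, and 6 for skin against muscle, 3% beside 0.252%. In limma voom these counts were 5 (2.5% beside 0.623%) and 14 (7% beside 0.628%). With the season from the tag they were 4 (2% beside 1.43%) and 41 (20.5% beside 7.86%). All of these counts are over the 200 members, so they can include the 10 that did not pass the filter in muscle.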

How the data were processed

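Raw counts per gene for 42 libraries were deposited by the authors as 1 table, per the file headers and values, of which 75.8% of those from 1 to 10 were even, so they may count reads and not fragments. Trim Galore 0.6.6, SAMtools 1.10, HISAT2 2.2.1, FastQC and Cufflinks are listed in the submitters' processing notes. The genome build, the annotation and the counter are not given in the sources used. Libraries are unstranded, so reads of overlapping or antisense genes cannot be separated, and near copies can share reads.

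Members and lists were chosen with earlier results of these data known. Levels are counts divided by the library total, per 1000000. Season within a tissue (14 libraries) and season by tissue (42 libraries, 6 groups) were tested over all genes with edgeR 4.0.16 in R 4.3.3 (robust quasi-likelihood, two-sided, TMM, filterByExpr), with Benjamini-Hochberg adjustment and a threshold of 0.05; SE is from the F statistic. DESeq2 1.42.0 and limma 3.58.1 voom were alternatives, and the scripts were tested on simulated data. Near-identical libraries had a MAD of log2 count ratios under 0.15 (over genes reaching 1000 counts in that pair), and libraries that stand apart a median correlation with their tissue under 0.88.

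The individual number marks the same fish across tissues of a season, per the labels; deviations from group means of the same fish correlated at a mean of 0.166 for gills with skin, 0.0653 for gills with muscle and 0.101 for skin with muscle (n = 14 each). Different seasons hold different fish. Named members were those with the smallest p in each direction, at most 2 each, and the extremes of level, fold and variation; identifiers are given for at most 2 per direction, and other members by rank. The members ranked 3 and 177 were described after their values were seen. Marker lists could not be applied. Sequences are not shown, since none is in the files.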

Additional observations from a re-analysis of the deposited data

Results flagged for a closer look

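Dixon's test was applied to 60 groups of 7 libraries. It flags about 1 in 20 by chance when the values within a group are independent and normally distributed. The values were not transformed, some libraries are near-identical, and some members were picked for a small p, so that rate may not hold here. The groups also share libraries, so the flags are not independent of each other. A library far from the others was found in 9 groups, given as a description. Muscle summer 4 held 4 of them: the members' share of counts was 0.815% there (next 0.498%), the median member stood at 1.87% of its gill level (next 0.840%), OAV3G000001926 at 2828 CPM (next 1387) and the rank 3 member at 6.42 CPM (next 2.87). The rank 3 member was also far above the rest in muscle winter 2 (111 CPM, next 41.7) and in skin winter 3 (103 CPM, next 37.0). The rank 4 member stood out in gills summer 3 (9253 CPM, next 3731) and in gills winter 4 (4155 CPM, next 2611). OAV3G000017780 was highest in gills winter 1 (127 CPM, next 118).

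Tested as an interaction in edgeR, the seasonal difference differed between tissues for 50 members in gills against muscle (25%, beside 2.31% of all genes). For skin against muscle it differed for 81 (40.5%, beside 4.83%). With near-identical libraries averaged these counts were 0 and 6, and in limma voom 5 and 14. Of the 50 and 81 members, 9 and 10 did not pass the filter on low counts in muscle. Among them was OAV3G000003139 (log2 difference 6.97 for gills against muscle and 8.85 for skin against muscle). The other named members were OAV3G000019271 (4.52, gills against muscle), OAV3G000015415 (9.49, skin against muscle) and OAV3G000011785 (-0.94, skin against muscle).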

How the results depend on the processing

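In gills, DESeq2 called 9 members and leaving out 1 library gave 0 to 3, with 3 (2 higher and 1 lower; 1.5% beside 0.731% of all genes) without gills summer 2; the other 22 alternatives called 0. In skin, DESeq2 called 3 of the 11 members to which it gave an adjusted p, 1 fit of all 42 libraries called 7, all higher in summer (3.5% beside 1.5% of all genes), and the count with any 1 library left out was 0. In muscle, against 56 of 190 members tested, the season from the tag gave 17 and near-identical libraries averaged 0. There, 1 fit of all 42 libraries gave 105 (102 lower, 52.5% beside 15% of all genes). That fit tested all 200 members, so it includes the 10 that did not pass the filter in muscle and is not like for like. Leaving out 1 library gave 26 to 79 (13.3% to 40.7%, beside 2.48% to 8.77% of all genes). For gills against muscle, against 50, limma voom gave 5, leaving out libraries with conflicting season tags 26 (13% beside 1.41% of all genes), the season from the tag 4, averaging near-identical libraries 0 and leaving out those that stand apart 91 (45.5% beside 7.48%). For skin against muscle, against 81, limma voom gave 14, the season from the tag 41 and averaging 6. The cause was not tested. Averaging also leaves fewer samples, and the part of this in the counts was not tested. With the individual number as a replicate block the muscle count was 54 (28.4% beside 4.2% of all genes). OAV3G000016994 was then not called in muscle (edgeR adjusted p = 0.0746). Within a tissue this block joins different fish of the 2 seasons, which the labels do not link. With the fish as a replicate block the interactions gave 42 and 78 members (21% and 39%, beside 2.1% and 3.7% of all genes). The negative call for skin against muscle was then lost. The other counts stayed at 0 with either block. Without the 10 most abundant members the members' share of counts was 5.13% in summer and 5.03% in winter gills, 0.595% in summer and 0.611% in winter skin, and 0.125% in summer and 0.148% in winter muscle. Counting only members that passed the filter in muscle, chosen after seeing the data, gave 41 for gills against muscle and 71 for skin against muscle. This count was made in the main fit only, and these members are not a neutral sample of the 200. The other interaction counts above are over all 200 members. Of the 200 members a fold of 8 kept 94. Counts near 0 in muscle limit every ratio there, most in muscle summer 4.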
